A study of Mus musculus with 2 samples.

Results

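Lymphatic endothelial cells of the mouse uterus were examined in single-cell RNA sequencing data from 2 libraries. Members were barcodes with at least 1000 unique molecular identifiers (UMIs, each standing for 1 captured transcript), 500 or more genes and a mitochondrial share of at most 20% of UMIs. They also held at least 3 summed UMIs of Mmrn1, Prox1, Flt4 and Reln, and none of Ptprc, Pdgfra or Epcam. The rule selected 82 of 7076 cells. Of these, 18 were among 3490 cells of the control-labelled library and 64 among 3586 cells of the cKO-labelled library.

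The study examined the uterus after loss of the planar cell polarity gene Prickle1 from the myometrium, per the series title. Whole uteri came from female C57BL/6J mice aged 6 months, and each library was a pool of 3 animals after a 5 hour collagenase digestion. The control library is titled Prickle1 f/f, so these mice carried the floxed allele too, and the cKO library is titled Prickle1 f/f MiC. MiC is not spelled out in the labels, the promoter that drives the deletion is not named there, and the genotype entry is wild-type in both cases.

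With 1 library per group there is no replicate, so no test of genotype was possible. Every interval below is an exact 95% interval that covers counting error only, and the limit given for a count of 0 is 3 counts of the total. Levels are counts scaled to a total of 1000000 (CPM) of the UMIs summed over the members of a library. Differences are log2 ratios of the cKO-labelled library over the control-labelled library after adding 20 CPM to each level, which understates the change of low genes. Mice and library cannot be told apart in any of these differences.

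Lymphatic vessels drain fluid, antigens and leucocytes from tissue and return them to the blood. Their endothelium is specified by the homeodomain factor PROX1, grows in response to VEGF-C through the receptor VEGFR3 (Flt4), and guides dendritic cells with the chemokine CCL21. Initial capillaries carry the hyaluronan receptor LYVE1 and have loose junctions, while collecting vessels have tighter junctions and valves. In the uterus, lymphatics lie in the myometrium and, to a degree that differs between species and stages, in the endometrium.

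Prickle1 (ENSMUSG00000036158, mm10 chromosome 15, 93499114 to 93595891, minus strand) was examined first because the labels name it. Members held 7 Prickle1 UMIs in 4 cells of the control-labelled library (25.6 CPM, interval 10.3 to 52.7) and 11 UMIs in 9 cells of the cKO-labelled library (19.3 CPM, 9.65 to 34.6). The ratio had an interval of 0.267 to 2.30, and a difference could not be detected with so few counts. In all other cells Prickle1 was at 2.39 CPM in the control-labelled library and 8.82 CPM in the cKO-labelled library. The counts did not show a loss, but they cannot check the label. The series title places the loss in the myometrium, which neither lymphatic endothelium nor the mixture of all other cells measures. The libraries are called by their labels throughout. The labels do not say which exons are deleted, and tags from outside the deleted part check nothing.

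The depth of the members differed between the libraries. The control-labelled library gave 273532 member UMIs, with a median of 8952.5 per cell and a range of 2338 to 97293. Its deepest barcode alone held 35.6% of those UMIs, and the 3 deepest held 56.1%. The cKO-labelled library gave 568901 member UMIs, with a median of 4799.5 and a range of 1069 to 42489, and its deepest barcode held 7.47%. Doublets were kept in the main values. The libraries shared 6 barcodes among all cells and none among members.

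The 4 genes of the rule show how firmly each cell carries the label, and since they chose the cells they are given as a description. In the control-labelled library, 15 of 18 members had all 4 markers detected and none had only 1. In the cKO-labelled library, 19 of 64 had all 4, 25 had 3, 13 had 2 and 7 had 1. The median marker sum was 27 UMIs per cell in the control-labelled library and 20 UMIs in the cKO-labelled library. Just inside the threshold, with exactly 3 marker UMIs, lay 1 control and 5 cKO cells. Just outside, with 2, lay 1 and 4.

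Prox1, the identity factor, had 479 UMIs in 17 control cells (1751 CPM) and 1258 UMIs in 60 cKO cells (2211 CPM). Mmrn1, a secreted multimerin, had 343 UMIs in 18 cells (1254 CPM) and 582 UMIs in 55 cells (1023 CPM). Reln, an extracellular matrix glycoprotein, had 155 UMIs in 17 cells (567 CPM) and 214 UMIs in 43 cells (376 CPM). Flt4 was the least detected marker, with 106 UMIs in 16 of 18 control cells (388 CPM) and 72 UMIs in 26 of 64 cKO cells (127 CPM).

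A few cells of the cKO-labelled library went against the label. In 2 of them Flt4 was the only marker and Cd93 and Flt1, genes typical of blood endothelium, were high, with 74 and 17 Cd93 UMIs and 33 and 9 Flt1 UMIs. In 1 cell the only marker was Prox1 with 3 UMIs, beside 128 UMIs of the fibroblast gene Dcn. In another, 4 lymphatic markers stood beside 243 UMIs of Cd74 and 94 of Ccr7, genes of mature dendritic cells, although Ptprc was at 0. Where these 4 cells held most of a named gene's UMIs, its count or ratio is also given without them.

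Markers of cell types other than endothelium were otherwise scarce. The blood endothelial list, which includes Kdr, was not: it summed to 321 UMIs over 17 control members and 763 UMIs over 60 cKO members. Smooth muscle markers summed to 4 UMIs over 3 control members and 49 UMIs over 16 cKO members, with a highest cell of 2 and 15. Of the 8 fibroblast markers, Mmp2 was the 1 detected in the control-labelled library, with 1 UMI, and the list summed to 176 UMIs in the cKO-labelled library, of which 158 lay in 1 cell. Epithelial markers summed to 20 and 8 UMIs, macrophage markers to 9 and 14, and lymphocyte markers to 1 and 10. The fibroblast list holds Pdgfra, the epithelial list Epcam, and the macrophage and lymphocyte lists Ptprc. The rule set these genes to 0, so the low sums of these lists are partly its outcome. Cd3e, Trac, Nkg7, Adgre1, Sox10 and Myocd were at 0 in both libraries. The exclusion genes had removed a further 7 control and 21 cKO barcodes with at least 3 marker UMIs, and those barcodes were deep, with medians of 15665 and 25631 UMIs. They are counted with the other cells wherever values of all other cells are given.

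Beyond the rule, the cells carried a broad endothelial and lymphatic programme relative to the rest of the uterus. Cdh5 (VE-cadherin, the adherens junction protein of endothelium) was at 1126 CPM in control members and 4.67 CPM in all other control cells, and at 903 and 29.6 CPM in the cKO-labelled library. Pecam1 or Cdh5 was detected in 17 of 18 control and 52 of 64 cKO members. The 12 cKO members without either had a median depth of 3267.5 UMIs. Because the cells were chosen by genes of the same profile, these contrasts are a description.

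Of genes outside the rule, 15 had the highest lower value, over the libraries, of the log2 ratio of members over all other cells. They were Ccl21a, Apold1, Nts, Clic5, Cdh5, Cldn5, Lyve1, Ptprb, Myct1, Egfl7, Hspa4l, Stc1, Unc5b, Rasgrp3 and Angpt2. Ccl21a (chromosome 4, 42772860 to 42773993, minus strand) was 6.86 above the other cells on the log2 scale in the control-labelled library and 5.10 in the cKO-labelled library. Its reads may be shared with near-identical copies of the gene, and Ccl21b was listed at 0. Nts, which encodes the peptide neurotensin, stood 4.61 and 5.63 above the other cells, where it was at 0.0268 and 4.20 CPM. Apold1, an endothelial early response gene, stood 4.74 and 5.07 above. Angpt2, a Tie2 ligand stored in endothelium, stood 5.38 and 3.32 above.

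**Figure D1:**
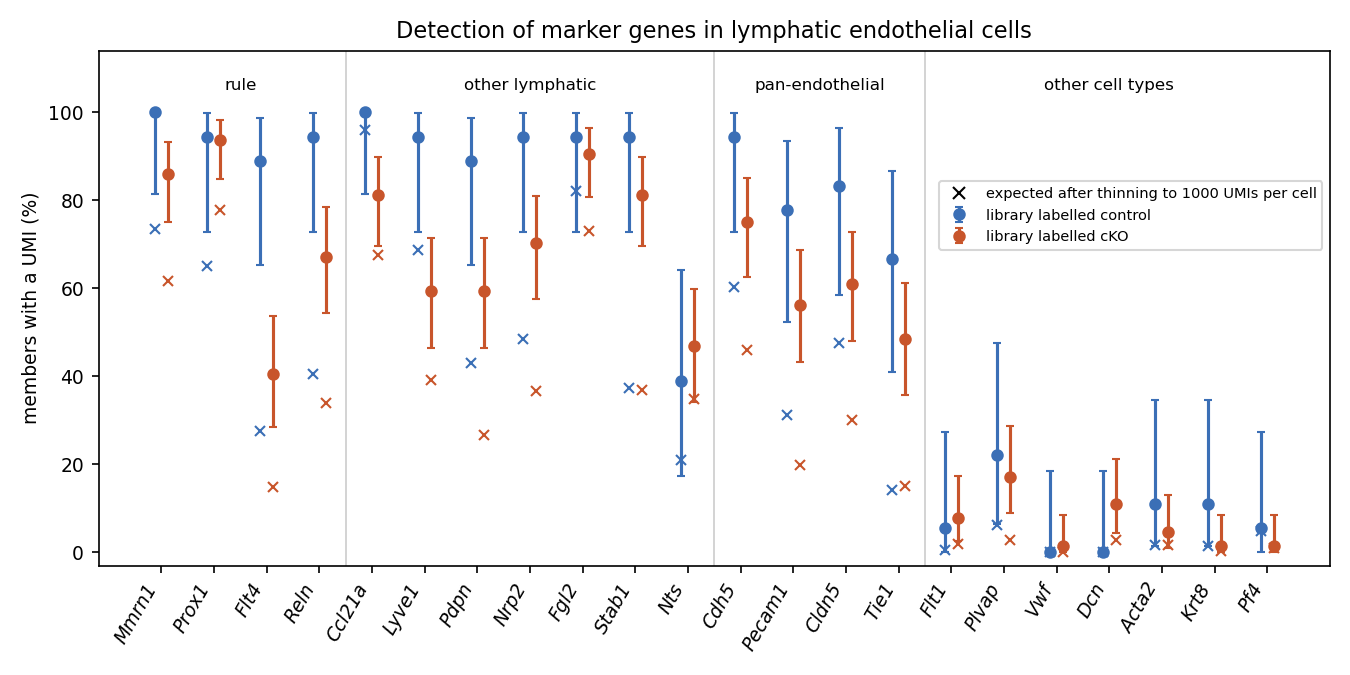
Share of members with at least 1 UMI (percent, vertical axis) for the 4 genes of the rule and further lymphatic and endothelial markers, in the 18 members of the control-labelled library and the 64 of the cKO-labelled library, with exact 95% binomial intervals and the share after thinning to 1000 UMIs. Ccl21a was detected in 18 of 18 control and 52 of 64 cKO members.

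Lymphatic endothelial cells made up 0.516% of cells in the control-labelled library (Clopper-Pearson interval 0.306 to 0.814) and 1.78% in the cKO-labelled library (1.38 to 2.27). The ratio was 3.46 (2.03 to 6.20). Cells with an Epcam UMI were fewer in the cKO-labelled library, and among cells without one the shares were 0.735% of 2450 cells and 1.86% of 3449 cells, a ratio of 2.53 (1.48 to 4.53). Blood vascular endothelium (at least 3 summed UMIs of Flt1, Emcn, Plvap and Sox17, none of the lymphatic markers or exclusion genes) numbered 5 control and 16 cKO cells. Lymphatic cells were 18 of 23 (78.3%, 56.3 to 92.5) and 64 of 80 (80.0%, 69.6 to 88.1) of all such endothelial cells. The ratio of these shares was 1.02 (0.598 to 1.83), and with the control share already at 78.3% it had little room to rise. Vascular cells, 5 of 3490 and 16 of 3586 cells, were also more frequent in the cKO-labelled library. The 21 vascular cells were too few for a comparison of gene levels. How well each library released endothelium from the tissue was not measured.

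Gene levels were then compared between the libraries for the 5336 genes with at least 20 member UMIs in total. Of these, 416 (7.8%) were at least 2-fold higher in the cKO-labelled library and 412 (7.72%) at least 2-fold lower. The median log2 ratio over all of them was -0.03 in members, and for the same genes it was 0.25 in all other cells. Median of ratios scaling moved that split to 518 higher and 345 lower, with a median of 0.08. Without possible doublets, as defined below, the counts were 277 and 228. These counts describe 2 libraries and carry no error rate.

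**Figure D2:**
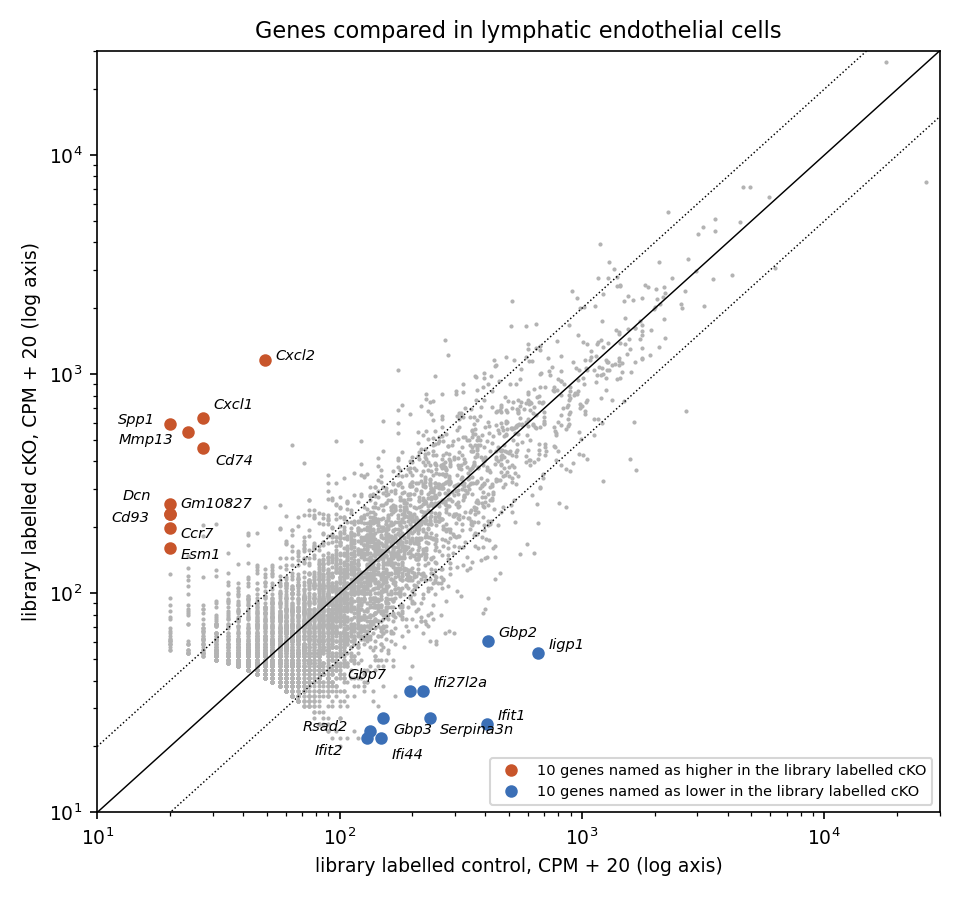
Level of each of the 5336 genes compared in members of the control-labelled library (horizontal) and of the cKO-labelled library (vertical), in CPM plus 20 on log axes, with the named genes marked and lines at 2-fold. Spp1, Mmp13, Cxcl1 and Cxcl2 lie far above the diagonal, and Ifit1 and Iigp1 far below.

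Genes known for lymphatic identity were mostly lower in the cKO-labelled library. Of 20 further lymphatic markers outside the rule, 17 could be compared, and 7 were at least 2-fold lower and 1 at least 2-fold higher, against 7.72% and 7.8% of all genes. With each cell weighted equally, 1 was that much lower and 1 higher, and without possible doublets (members deeper than 2 times their library's median, or with at least 3 summed UMIs of Myh11, Actg2 and Des), which left 14 and 47 members, 2 were lower and 2 higher. Their median log2 ratio was -0.95, beside -0.03 over all genes in the same cells. In all other cells the same markers had a median of 0.33, beside 0.25 over all genes there. Those other cells include the barcodes that the exclusion genes had removed. Without the deepest control barcode the marker median in members was -0.92, and without possible doublets it was -0.11. When each cell counted equally, whatever its depth, it was -0.50.

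Lyve1 (chromosome 7, 110850607 to 110863239, minus strand), the hyaluronan receptor of capillary lymphatics, had 729 UMIs in 17 of 18 control members (2665 CPM) and 375 UMIs in 38 of 64 cKO members (659 CPM). The log2 ratio was -1.98. The deepest control barcode held 353 of the 729 UMIs, and with every cell weighted equally the log2 ratio was -0.98. After thinning each cell to 1000 UMIs, Lyve1 was detected in 68.8% and 39.1% of members. In Ptprc-positive cells, of median depth 6709 and 4728 UMIs, 2.2% and 3.1% had a Lyve1 UMI.

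Ccl21a, the chemokine that draws CCR7-bearing dendritic cells and T cells into lymphatics, had 1704 UMIs in the control-labelled library (6229.6 CPM) and 1730 in the cKO-labelled library (3041 CPM). That gave a log2 ratio of -1.03. Every control member had at least 7 Ccl21a UMIs, with a median of 58 per cell. In the cKO-labelled library the median was 11 and 12 of 64 members had none. Of the 17 cKO members with at most 1 Ccl21a UMI, 15 had a Prox1 UMI. Prox1 helped to choose the cells and was detected in 60 of all 64 cKO members. Without the 4 cells that went against the label, 14 of 60 members had at most 1 Ccl21a UMI and all 14 had Prox1. Their median depth was 4579.5 UMIs, beside 4544.5 over the 60. No control member was that low. Neither Lyve1 nor Ccl21a was detected in 11 of all 64 cKO members and in 0 of 18 control members. Whether such cells are lymphatic cells with low Ccl21a or carry the label less firmly was not tested.

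Podoplanin (Pdpn), a membrane mucin of lymphatic endothelium, was at 896 CPM (245 UMIs) in the control-labelled library and 374 CPM (213 UMIs) in the cKO-labelled library, a log2 ratio of -1.22. The deepest control barcode held 117 of the control UMIs, and without it the log2 ratio was -0.92. With Ptprc, Pdgfra and Epcam not used it was -0.01. Ackr2, a decoy receptor that removes inflammatory chemokines, had 36 UMIs in 10 of 18 control cells and 10 UMIs in 7 of 64 cKO cells, a log2 ratio of -2.01 with a ratio interval of 0.0591 to 0.275. Tspan18, a tetraspanin, had 76 and 26 UMIs, a log2 ratio of -2.18. Sema3a, a repulsive guidance ligand, was at -1.54 and Thy1 at -1.14.

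Other markers of the same list did not share that difference. Sema3d, another class 3 semaphorin, was at 176 and 200.4 CPM, a log2 ratio of 0.17. Cd9, a tetraspanin, was at 2025 and 2190 CPM, with a log2 ratio of 0.11. Stab1, a scavenger receptor, was detected in 17 of 18 and 52 of 64 members with a log2 ratio of -0.46.

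Nts was the 1 marker of that list past 2-fold higher. It had 128 UMIs in 7 of 18 control members (468 CPM) and 671 UMIs in 30 of 64 cKO members (1179 CPM). The log2 ratio was 1.30 and the ratio interval 2.08 to 3.07. The cells that had it held a median of 16 UMIs in the control-labelled library and 15 UMIs in the cKO-labelled library, and 5 of the 7 and 16 of the 30 had at least 10. The shares of cells with a UMI, 38.9% (17.3 to 64.3) and 46.9% (34.3 to 59.8), overlapped within counting error, and after thinning they were 20.9% and 34.9%. Among Ptprc-positive cells 0 of 766, which allows up to 0.392%, and 0.733% of 1091 had an Nts UMI.

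**Figure D3:**
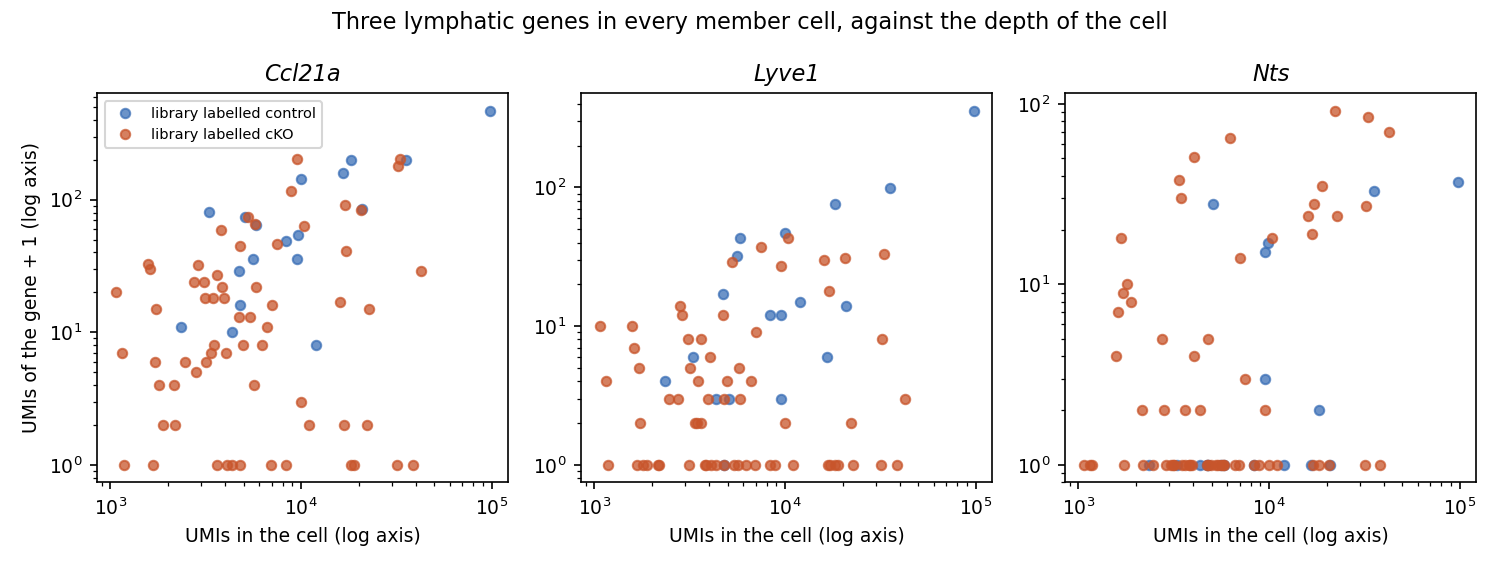
UMIs of Ccl21a, Lyve1 and Nts plus 1 (vertical, log axis) in every member against the UMIs of the cell (horizontal, log axis), for the 18 control and 64 cKO cells. Control cells all have at least 7 Ccl21a UMIs, while a group of cKO cells of ordinary depth lies at 0 or 1.

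Among pan-endothelial genes 18 of 22 were compared, with 2 at least 2-fold higher (11.1%, beside 7.8% of all genes) and 5 at least 2-fold lower (27.8%, beside 7.72%). Their median log2 ratio was -0.30. Junction and surface genes such as Cdh5 (-0.31), Cldn5 (-0.43), Tie1 (0.10) and S1pr1 (0.23) stayed within 2-fold. The lower ones were Sox18, Eng, Ramp2, Ecscr and Tal1. The higher ones were Cd93 and Esam, and without the 4 cells that went against the label Esam had 11 of its 26 cKO UMIs and Cd93 was at 2.01 in place of 3.53. Of 7 blood endothelial genes compared, 3 were at least 2-fold higher (42.9%, beside 7.8% of all genes) and none lower (7.72% of all genes). Their median log2 ratio was 0.56. Esm1 was among the higher ones, with all 80 of its UMIs in 1 cell that went against the label.

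Sox18, the SOX factor that induces Prox1 during lymphatic specification, had 101 UMIs in 10 of 18 control cells (369 CPM) and 35 UMIs in 9 of 64 cKO cells (61.5 CPM). This was a log2 ratio of -2.26, with a ratio interval of 0.110 to 0.247. After thinning, 23.1% and 3.67% of members had a Sox18 UMI. Its log2 ratio ranged from -2.89 to -1.91 over the processing alternatives.

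Among 23 endothelial transcription factors, 4 were at least 2-fold lower (17.4%, beside 7.72% of all genes) and 2 at least 2-fold higher (8.7%, beside 7.8%), with a median log2 ratio of 0.13. Besides Sox18 and Tal1, the lower factors were Nr2f2 and Tbx1. Nr2f2 (COUP-TFII, a venous and lymphatic fate factor that partners PROX1) had 112 and 80 UMIs, a log2 ratio of -1.42. Tbx1 had 37 and 24 UMIs and a log2 ratio of -1.32. The higher factors were Klf2 and Ets2 (1.62). Prox1 itself, a gene of the rule, had a log2 ratio of 0.33. It ranged from 0.07, without the deepest control barcode, to 0.98 over the processing alternatives.

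Klf2, a shear-responsive Krüppel-like factor, had 42 UMIs in 10 control cells (154 CPM) and 295 UMIs in 39 cKO cells (519 CPM). The log2 ratio was 1.63 and the ratio interval 2.44 to 4.78. Klf4, its relative, was at 1528 and 2264 CPM, a log2 ratio of 0.56.

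Klf2 and Klf4 were also counted among 16 valve and flow genes, of which 3 were at least 2-fold higher and 2 lower, beside 7.8% and 7.72% of all genes, with a median log2 ratio of 0.23. Sdc4, a proteoglycan of flow sensing, had 10 UMIs in 5 control cells (36.6 CPM) and 133 UMIs in 28 cKO cells (234 CPM), a log2 ratio of 2.17. Efnb2, the ephrin of arterial endothelium and lymphatic valves, was at 1.01, while its receptor Ephb4 was at -1.06. Foxc2, the master factor of valves, had 15 UMIs in 5 and 24 UMIs in 12 cells, and Cldn11, a junction protein enriched in valves, had 27 in 5 and 35 in 18. Both genes were detected together in 2 control and 6 cKO cells, so valve-type cells were too few to describe further.

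Among the VEGF receptors, Flt4 belongs to the rule and is given above. Kdr (VEGFR2) had 97 and 122 UMIs, a log2 ratio of -0.68, and its co-receptor Nrp2 had 209 and 296, at -0.54. Flt1 had 1 UMI in the control-labelled library and 45 in the cKO-labelled library, of which 33 lay in 1 Flt4-only cell, and 3 remained without the 4 cells that went against the label. Nrp1 had 0 and 20 UMIs, all 20 in those 4 cells. In the angiopoietin pathway Angpt2 was at 954 CPM (261 UMIs) and 415 CPM (236 UMIs), a log2 ratio of -1.16, and the receptors Tek (0.15) and Tie1 (0.10) stayed near 0.

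Adrenomedullin acts on lymphatic endothelium through the receptor Calcrl with its partner Ramp2. Calcrl had 97 and 80 UMIs, a log2 ratio of -1.22, and 1 control cell held 48 of the 97. Ramp2 had 29 UMIs in 11 of 18 and 13 UMIs in 11 of 64 cells, at -1.56. Ramp3, an alternative partner, had 0 UMIs in the control-labelled library and 58 UMIs in 4 cells of the cKO-labelled library, with 39 in 1 cell and 1 left without the cells that went against the label.

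Of 16 BMP and TGF-beta genes, 4 were at least 2-fold lower (25%, beside 7.72% of all genes) and 1 at least 2-fold higher (6.25%, beside 7.8%), with a median log2 ratio of -0.64 beside 0.45 for the same genes in all other cells. Eng (endoglin, an auxiliary receptor) had 147 UMIs in 15 of 18 cells and 75 UMIs in 24 of 64 cells, a log2 ratio of -1.88. In the control-labelled library 1 cell held 67 of the 147 Eng UMIs. The immediate targets Id1 (230 and 199 UMIs, -1.22), Id2 (178 and 161 UMIs, -1.15) and Smad6 (40 and 35 UMIs, -1.03) were the other lower genes. Acvrl1 (ALK1) had 1 and 36 UMIs, of which 2 remained without the cells that went against the label.

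Sphingosine-1-phosphate, made and exported by lymphatic endothelium, guides lymphocytes out of tissue. Of 6 genes of its metabolism and signalling, 3 were at least 2-fold higher and 1 lower, beside 7.8% and 7.72% of all genes. Sphk1, a kinase that makes it, had 4 UMIs in 4 cells and 36 UMIs in 23 cells, a log2 ratio of 1.27. The lyase Sgpl1 was at 1.28. The phosphatase Plpp3 was at 1.43, with 108 of its 188 cKO UMIs in 1 cell and 78 left without the cells that went against the label, and Plpp1 was at -1.58. The exporter Spns2 was at -0.04.

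In the remaining lists most genes lay within 2-fold. Of 22 matrix and basement membrane genes, 2 were higher and 2 lower (9.09% each), near the 7.8% and 7.72% of all genes. The higher ones were Sparc and Sparcl1, with 93 and 28 cKO UMIs, of which 0 and 4 remained without the cells that went against the label, and the lower ones were Nid1 and Ltbp4, both at -1.02. Of 18 junction genes 1 was higher and 1 lower. Of 8 Notch genes 2 were higher, the ligands Dll1 (1.52) and Dll4 (1.33). Of 9 planar cell polarity genes, the pathway of Prickle1, none was past 2-fold in either direction, and the median log2 ratio was 0.35. Fzd6, the polarity receptor, was at 91.4 and 148 CPM. Wnt5a, a ligand of the pathway, fell under the minimum of 20 UMIs, with 0 and 18.

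**Figure D4:**
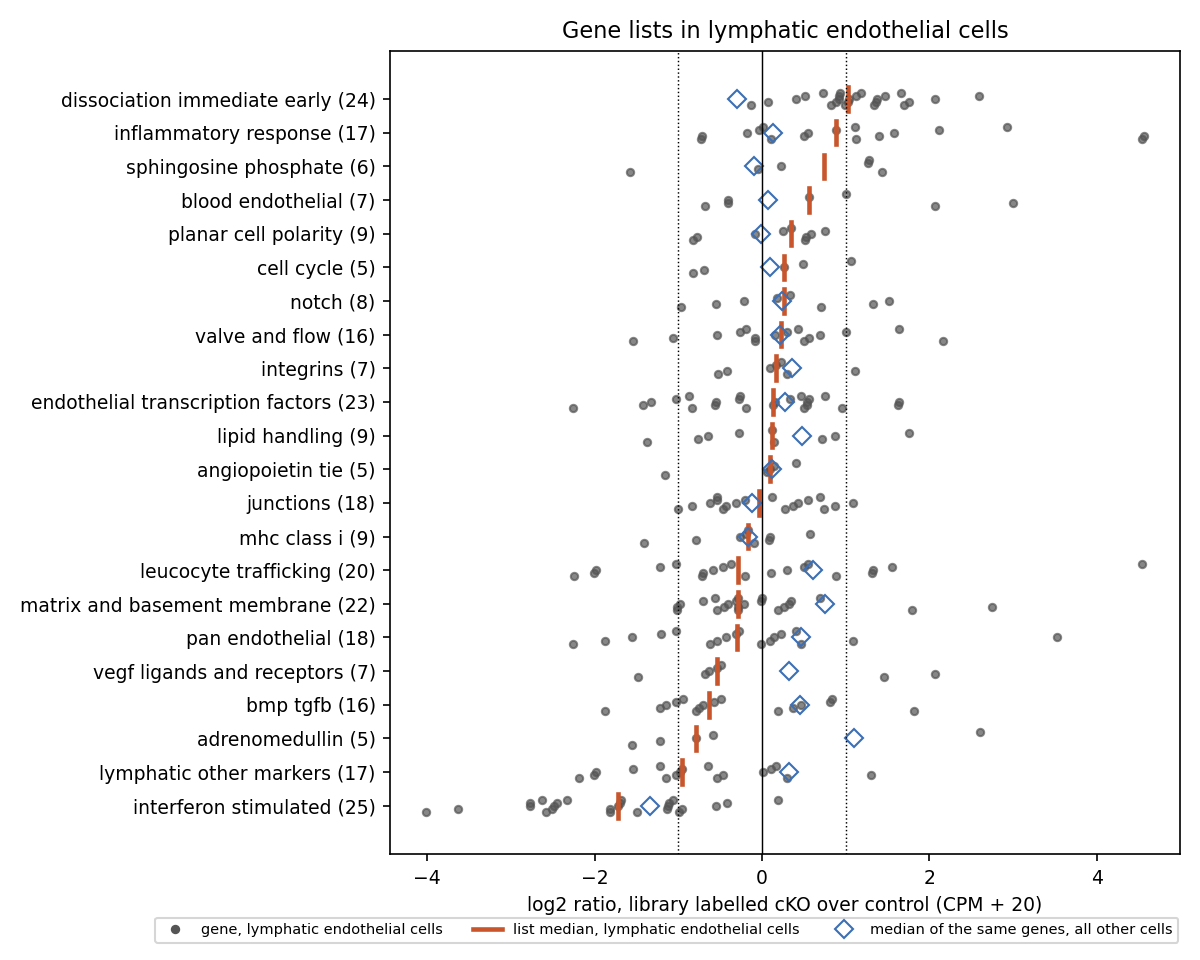
Log2 ratio of each compared gene (points, horizontal axis, cKO-labelled library over control on the CPM plus 20 scale) by gene list, with the number compared in parentheses and markers for the median in members and in all other cells. The interferon-stimulated genes lie to the left in both, while the dissociation and immediate early genes lie to the right in members only by their medians, 1.03 against -0.30.

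Inflammatory chemokines gave the highest ratios that rested on many cells. Of 17 inflammatory response genes compared, 8 were at least 2-fold higher in the cKO-labelled library (47.1%, beside 7.8% of all genes) and none at least 2-fold lower (7.72% of all genes). The median log2 ratio was 0.89, beside 0.14 in all other cells. With the exclusion genes not used, which added 7 and 21 deep barcodes, 4 were higher and 2 lower and the median was 0.41. Without the deepest control barcode the median was 1.31.

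Cxcl2 (chromosome 5, 90903871 to 90905938, plus strand), a neutrophil chemoattractant, had 8 UMIs in 2 of 18 control members (29.3 CPM) and 651 UMIs in 27 of 64 cKO members (1144 CPM). The ratio interval was 19.7 to 91.0 and the log2 ratio 4.56, which was 2.74 with each cell weighted equally and 2.11 without possible doublets. The highest cKO cell held 215 of the 651. Its near neighbour Cxcl1, of the same function, had 2 UMIs in 1 cell and 349 UMIs in 26 cells, with a ratio interval of 23.1 to 696. Cxcl1 or Cxcl2 was detected in 2 of 18 and 33 of 64 members.

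Both genes were also counted outside these cells. In all other cells Cxcl2 was at 801 and 1267 CPM and Cxcl1 at 243 and 509 CPM, so the control members lay far below their surroundings and the cKO members near them. Free RNA could add such UMIs to any cell, and its part was not tested beyond 1 alternative that subtracted the empty-droplet profile. With the exclusion genes not used, Cxcl1 went from a log2 ratio of 4.54 to 1.25 and Cxcl2 to -0.40, so the direction of Cxcl2 rests on leaving those barcodes out.

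Csf3 (G-CSF), which mobilises neutrophils, had 4 UMIs in 3 control cells and 139 UMIs in 18 cKO cells, a log2 ratio of 2.93. Tnfaip3, an inhibitor of NF-kappaB, had 2 UMIs in 1 cell and 56 UMIs in 22 cells, at 2.12. Nfkbia, the NF-kappaB inhibitor that NF-kappaB itself induces, was detected in 16 of 18 and 62 of 64 members, at 892 and 2380 CPM, with a log2 ratio of 1.40. In all other cells Nfkbia was at 780 and 675 CPM. Il6 was at 1.57, with 14 of its 41 cKO UMIs left without the 4 cells that went against the label, and Socs3 and Nfkbiz at 1.12. Icam1, the leucocyte adhesion receptor, was at 362 and 687 CPM, a log2 ratio of 0.89.

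Ccl2, a monocyte chemoattractant, was concentrated in few control cells. It had 260 UMIs in 4 of 18 control members, 253 of them in 2 cells, and 582 UMIs in 34 of 64 cKO members. Its log2 ratio was 0.10, and 2.71 with the highest cell of each library left out. Ccl7 had 107 UMIs in 7 cells and 332 UMIs in 35 cells, at 0.55 and 1.99.

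Spp1 and Mmp13 marked a small set of cKO members. Spp1 (osteopontin, a secreted phosphoprotein of matrix) had 0 UMIs in the control-labelled library, where a count of 0 allows up to 3 counts, and 325 UMIs in 10 cells of the cKO-labelled library. Against 3 counts it was at least 52.1-fold higher, the exact ratio interval began at 42.1, and 213 of the 325 UMIs lay in 1 cell. Mmp13 (collagenase 3) had 1 UMI in the control-labelled library and 299 UMIs in 7 cells of the cKO-labelled library, with 101 in the highest. All other cells had Spp1 at 56.8 and 78.4 CPM and Mmp13 at 53.3 and 34.6 CPM.

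In 9 cKO members at least 4 UMIs of Spp1 or Mmp13 were counted, and in no control member, where 0 of 18 cells allows a share of up to 16.7%. All 9 had UMIs of Prox1, a gene of the rule that was detected in 60 of all 64 cKO members, and 8 had Cdh5. Nts was detected in 6 and Cxcl2 in 7 of the 9. Lyve1 was at most 1 UMI in 8 and Ccl21a at most 1 UMI in 5. These cells were chosen by their values, so the pattern is a description.

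Most of the other genes with the highest ratios rested on 1 or 2 cells, and their log2 ratios, fitted against 0 or 2 control UMIs, are no bounds. Dcn had 0 and 134 UMIs, 128 of them in the Dcn-rich cell, and without the 4 cells that went against the label its log2 ratio was 0.61 in place of 3.68. Cd74 had 2 and 251 UMIs and went from 4.08 to 0.43. Ccr7 had 0 and 102 UMIs and went from 3.32 to 0.88. All 80 Esm1 UMIs lay in 1 cell and it went from 3.01 to 0.00. Cd93 had 0 UMIs and 120 UMIs in 8 cells, and went from 3.53 to 2.01. Gm10827 had 0 UMIs and 120 UMIs in 5 cells. The 4 MHC class II genes compared were all at least 2-fold higher, with 97.1% of the cKO UMIs of the list in 2 cells. Without the 4 cells that went against the label the list had 6 control and 19 cKO UMIs, too few for any of its genes to be compared.

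Dissociation and immediate early genes were higher in the members of the cKO-labelled library. All 24 were compared, and 13 were at least 2-fold higher (54.2%, beside 7.8% of all genes) and none at least 2-fold lower (7.72% of all genes). The 13 became 8 without possible doublets and 3, with a median of 0.49, when the exclusion genes were not used. The median log2 ratio over the members was 1.03, whereas the same genes had a median of -0.30 in all other cells. The list took 1.19% of member UMIs in the control-labelled library and 2.65% in the cKO-labelled library, beside 1.38% and 1.14% in all other cells.

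Among them Hspa1a, an inducible heat shock protein, had 42 UMIs in 6 of 18 cells (154 CPM) and 583 UMIs in 42 of 64 cells (1025 CPM), a log2 ratio of 2.59. Its near-identical copy Hspa1b had 136 UMIs in 17 cells and 1218 UMIs in 55 cells, at 2.06, and reads of the pair cannot be told apart with certainty. Fos (1.47), Atf3 (1.66), Zfp36 (1.75), Nr4a1 (1.37), Jund (1.37) and Ppp1r15a (1.70) were higher too. Egr1 (-0.13) and Myc (0.08) lay near 0.

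Per cell, the list's share of UMIs had a median of 0.893% in control members (0.371% to 5.87%) and 2.48% in cKO members (0.799% to 16.2%). More than 2% was reached by 4 of 18 and 43 of 64 cells, so the ranges overlapped. Members of the cKO-labelled library also had a higher median mitochondrial share, 3.00% against 2.29%. Over all cells the order was the other way, with 2.89% in the cKO-labelled library and 3.15% in the control-labelled library. Both libraries had the same stated digestion time. The part of handling in any difference above, including those of Klf2, Nfkbia and Cxcl2, was not tested.

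**Figure D5:**
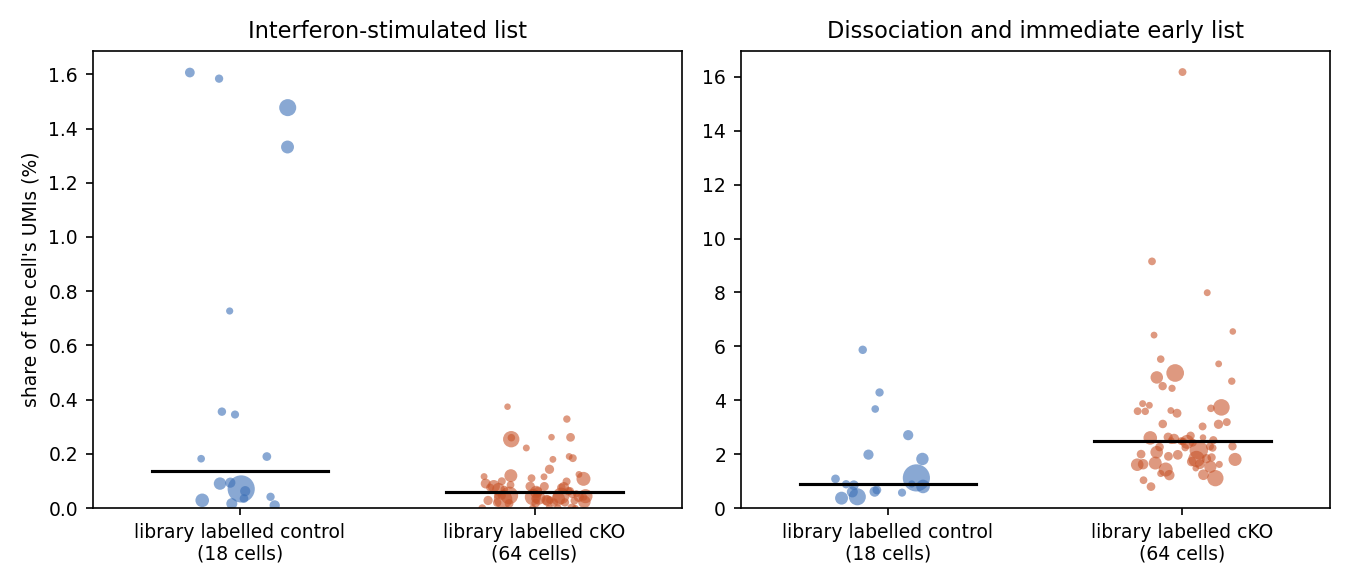
Share of each member's UMIs (percent, vertical axis) taken by the interferon-stimulated list and by the dissociation and immediate early list in the 18 control and 64 cKO cells, each point 1 cell sized by its depth, with lines at the medians. For the interferon list 4 control cells lie between 1.33% and 1.61% and every cKO cell lies at or below 0.374%.

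Interferon-stimulated genes were lower in the cKO-labelled library, in these cells as elsewhere. Of 40 genes listed, 25 were compared, and 20 were at least 2-fold lower and none at least 2-fold higher. The median log2 ratio was -1.72, and in all other cells the same genes had a median of -1.34. Of all genes, 7.72% were that much lower. The 20 became 2 without possible doublets and 8 among genes with at least 50 UMIs, where fewer genes were compared. The list took 0.422% of member UMIs in the control-labelled library and 0.0724% in the cKO-labelled library, beside 0.515% and 0.121% in all other cells.

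The control signal came from few members. In 4 of 18 cells the list took 1.33% to 1.61% of the UMIs, and those cells held 975 of the 1154 UMIs (84.5%). In the other 14 control cells the share ran from 0.0101% to 0.727%, with a median of 0.0808%. In the 64 cKO members it ran from 0 to 0.374%, with a median of 0.0597%. These medians lay closer together than the summed shares, and no cKO member reached the level of the 4 high cells. Leaving out possible doublets, which removed 2 of the 4, gave a list median of -0.62. A count of 0 among 64 cells allows a share of such cells of up to 4.69%.

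Ifit1, which binds viral RNA, had 106 UMIs in 4 control cells (388 CPM), with 54 and 49 in 2 of them, and 3 UMIs in 3 cKO cells (5.27 CPM). The log2 ratio was -4.01 and the ratio interval 0.00276 to 0.0409, and without possible doublets the log2 ratio was -0.70, within 2-fold. Iigp1, an immunity-related GTPase, had 175 UMIs in 6 cells and 19 UMIs in 10 cells, at -3.63, with 106 of the 175 in 1 cell. Ifit3 had 22 and 0 UMIs.

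The guanylate-binding proteins, GTPases that attack intracellular pathogens, followed the same direction. Gbp2 had 107 UMIs in 7 cells and 23 UMIs in 8 cells (-2.77), Gbp3 had 36 and 4 UMIs (-2.49), and Gbp7 had 48 and 9 (-2.45). Ifi44 had 35 and 1 UMIs, Ifit2 30 and 1, Rsad2 31 and 2, and Ifi27l2a 55 and 9. Signalling members moved less: Stat2 was at -1.81 and Irf9 at -1.13. Isg15, with 57 UMIs in 10 cells and 54 UMIs in 22 cells, was at -0.99, and Irf1 was at 0.19.

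Serpina3n, an acute-phase protease inhibitor outside the interferon list, was the other gene among the 10 lowest. It had 59 UMIs in 8 of 18 control cells (216 CPM) and 4 UMIs, all in 1 cell, in the cKO-labelled library (7.03 CPM). The log2 ratio was -3.12. All other cells had 1.23 and 3.16 CPM, so in the control-labelled library Serpina3n stood 3.47 above the other cells on the log2 scale. MHC class I genes, also inducible by interferon, lay near 0, with a median of -0.17 over 9 genes, B2m at 0.10, H2-K1 at 0.57 and H2-T23 at -1.41.

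Promoters of 4 of the interferon genes are shown because these genes moved together. The search covered the 250 bases before the annotated gene start in RefSeq, build GRCm38.p6, for the interferon-stimulated response element (ISRE), searched on both strands as GAAA, then any 2 bases, then GAAA again. Of 25 compared interferon genes, 19 matched the table and 12 of them (63.2%) held the letters, beside 936 of all 27025 genes (3.46%). The list was chosen as interferon-stimulated genes, so this share describes the list and not the difference between the libraries. Of the 16 matched genes at least 2-fold lower, 10 held the letters. Sequences are in the direction of transcription, and capitals mark each ISRE match, here its reverse complement, with TTTC on either side of any 2 bases. A match is a description and not a binding site. Ifit1 lies at chr19:34640639-34640888 on the plus strand, Ifit3 at chr19:34583279-34583528 on the plus strand, Rsad2 at chr12:26456453-26456702 on the minus strand and Gbp2 at chr3:142620413-142620662 on the plus strand.
Ifit1: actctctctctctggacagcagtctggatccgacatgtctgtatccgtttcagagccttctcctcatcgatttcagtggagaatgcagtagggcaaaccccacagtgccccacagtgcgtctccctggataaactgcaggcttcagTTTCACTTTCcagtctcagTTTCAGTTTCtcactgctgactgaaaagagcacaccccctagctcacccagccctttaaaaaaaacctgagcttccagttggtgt
Ifit3: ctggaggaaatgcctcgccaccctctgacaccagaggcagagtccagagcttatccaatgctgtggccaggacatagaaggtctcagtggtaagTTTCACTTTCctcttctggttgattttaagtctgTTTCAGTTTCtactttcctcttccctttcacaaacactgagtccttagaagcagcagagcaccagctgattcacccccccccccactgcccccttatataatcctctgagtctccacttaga
Rsad2: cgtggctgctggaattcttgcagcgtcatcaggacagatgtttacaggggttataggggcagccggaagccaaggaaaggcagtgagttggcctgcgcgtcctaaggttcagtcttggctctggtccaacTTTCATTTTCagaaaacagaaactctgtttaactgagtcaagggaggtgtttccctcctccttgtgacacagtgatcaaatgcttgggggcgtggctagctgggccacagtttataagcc
Gbp2: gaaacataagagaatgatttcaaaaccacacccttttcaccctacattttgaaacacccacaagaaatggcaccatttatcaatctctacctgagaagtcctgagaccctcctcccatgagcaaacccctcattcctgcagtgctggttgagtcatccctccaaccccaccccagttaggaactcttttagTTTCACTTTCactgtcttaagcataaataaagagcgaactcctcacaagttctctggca

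Ifit1 held a pair of matches, which began 104 and 85 bases before the gene start. Ifit3 held matches at 156 and 122 bases, Rsad2 at 120 bases and Gbp2 at 59 bases. The UMIs of these 4 genes in control and cKO members were 106 and 3 for Ifit1, 22 and 0 for Ifit3, 31 and 2 for Rsad2 and 107 and 23 for Gbp2.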

How the data were processed

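Whole uterus was profiled with 10x Genomics 3' v3 chemistry in 2 libraries, 1 per group, each a pool of 3 mice. The authors deposited unfiltered UMI counts per gene and barcode, with no normalization. The file headers name Cell Ranger version 4, whereas the submitters' processing notes name version 6.1.1 and build mm10, and which was used could not be settled. Of 32285 gene identifiers, 32235 occur in GENCODE vM21, whose mm10 coordinates are given. Library totals were 45035801 UMIs (control) and 34261441 (cKO), with medians of 4953 and 4903 UMIs over cells.

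Computed here, with Python 3.11.15, numpy 2.4.6, scipy 1.17.1 and pandas 2.3.3, were the member rule, summed UMIs, CPM, log2 ratios with 20 CPM added, and exact Poisson, Clopper-Pearson and conditional intervals at 95%. Thinning to 1000 UMIs used the exact hypergeometric expectation. Doublets were kept and no caller was run. Genes needed 20 UMIs over both libraries to be compared. The steps were tested on simulated data.

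Named between libraries were the 10 highest and 10 lowest genes by the ratio bound nearest to no difference, with at least 30 UMIs in all and 100 CPM in either library, leaving out mitochondrial, ribosomal and rule genes. The 15 genes over all other cells needed at least 10 UMIs in each library. The other named genes are members of 35 gene lists, the rule's genes and Prickle1. Members, lists and rules were chosen with earlier results of these data known. Empty droplets were barcodes of 10 to 100 UMIs. Mx1 and Mx2 were not analysed here. Replicates, litters and batches cannot be told apart from genotype, since each group is 1 pooled library.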

Additional observations from a re-analysis of the deposited data

Results flagged for a closer look

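In 6 gene lists of at least 10 compared genes, the median log2 ratio of the cKO-labelled library over the control-labelled library had opposite signs in lymphatic endothelial cells and in all other cells, with both medians at least 0.25 from 0. With 1 library per group the difference was not tested, and other cells are a mixture whose makeup differed between the libraries. Over all 5336 genes compared the median was -0.03 in members and 0.25 in other cells, so the other cells lay above 0 in general.

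For the further lymphatic markers the median was -0.95 in members and 0.33 in other cells, a difference of -1.28 over 17 genes. Pan-endothelial genes were at -0.30 and 0.47, a difference of -0.76 over 18 genes. Leucocyte trafficking genes were at -0.28 and 0.61, a difference of -0.90 over 20 genes. BMP and TGF-beta genes were at -0.64 and 0.45, a difference of -1.09 over 16 genes. Matrix and basement membrane genes were at -0.29 and 0.76, a difference of -1.04 over 22 genes. In these 5 lists the level was lower in cKO members and higher in the other cells, where the median over all genes was 0.25 as well.

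The dissociation and immediate early list had the opposite pattern, at 1.03 in members and -0.30 in other cells, a difference of 1.33 over 24 genes. Lists share genes, Lyve1 and Ccl21a among them, so these values are not independent.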

How the results depend on the processing

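No paired analysis was possible because each group is 1 pooled library, and for the same reason no replicate could be left out. The 7 main results gave 120 values under the alternatives. Counts of genes cannot be negative, and all values of the list medians and of the share kept the sign of the main value. Of the 120 values, 104 stayed within 1.5 times the main count or within the limits of the main value, and 16 moved. For the share these limits were its counting interval. For a list median they were the median of the bounds of its single genes, which is not a counting interval of the median. Leaving out possible doublets (14 and 47 members remained) gave 277 genes at least 2-fold higher, 228 lower, a lymphatic marker median of -0.11 and an interferon median of -0.62. Not using Ptprc, Pdgfra and Epcam (25 and 85 members) gave 251 higher, 213 lower, and medians of 0.41 for inflammatory and 0.49 for immediate early genes, and reversed Cxcl2 to -0.40. A pseudocount of 50 CPM gave 199 higher and 171 lower, and one of 5 CPM gave 710 lower and an interferon median of -2.41. A filter of 50 UMIs gave 197 lower. Weighting cells equally gave -0.50 for lymphatic markers, and leaving out the deepest control barcode gave 1.31 for inflammatory genes. Against lymphatic plus vascular endothelium, the log2 ratio of the share was 0.032 (-0.741 to 0.874) in place of 1.79. The control share there was already 78.3%, so this ratio could not come near 1.79. Of 576 values for 32 named genes, 394 stayed within limits taken from the counting interval after adding 20 CPM. For genes with 0 control UMIs, such as Spp1, the upper limit used was the main value itself. Any higher value of those genes therefore counted as moved, although their counting interval has no upper end. The filters on UMIs cannot change the ratio of a single gene, so their values are among the 394 by construction. The sign changed in 4 values of 3 genes: Cxcl2, as above, Mmrn1 (-0.29, which was 0.59 without possible doublets and 0.16 with equal weights) and Reln (-0.57, which was 0.31 without possible doublets). The cause was not tested. With 18 control cells, of which 1 holds 35.6% of the UMIs, depth limits every control level. The alternatives that left out the exclusion genes, the deepest control barcode, the 4 cells that went against the label or each gene's highest cell were chosen after seeing the data.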

Other observations

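Cyp1a1, a monooxygenase induced through the aryl hydrocarbon receptor, was high in members of both libraries. It had 404 UMIs in 8 of 18 control cells (1477 CPM) and 417 UMIs in 17 of 64 cKO cells (733 CPM), a log2 ratio of -0.99. The highest cell of each library held 163 and 148 of these UMIs. All other cells were at 14.7 and 76.5 CPM. Within the control library, 7 of the 8 cells with a Cyp1a1 UMI had at least 10, so cells without any and cells with many stood apart. In the cKO-labelled library 5 of the 17 cells with a Cyp1a1 UMI had at least 10, and their median was 3 UMIs, so they did not stand apart in that way. Rspo3, a Wnt pathway agonist secreted by endothelium, had 34 UMIs in 3 control cells and 6 UMIs in 6 cKO cells, with a ratio interval of 0.0291 to 0.204. Il33, an alarmin stored in endothelial nuclei, had 48 UMIs in 4 control cells, 46 of them in 2, and 12 UMIs in 3 cKO cells. These genes were chosen after their values were seen.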
